A study of Mus musculus with 16 samples.

Results

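Markers of smooth muscle cells and of pericytes were followed across libraries of mouse epididymal fat, the fat pad that lies along the epididymis. They were 4 contractile smooth muscle genes (Acta2, Myh11, Tagln and Cnn1), 5 pericyte genes (Rgs5, Notch3, Abcc9, Kcnj8 and Cspg4) and the long non-coding RNA (lncRNA) Carmn. The 10 genes were picked by name, 9 among the 27150 genes of the mRNA table and Carmn among the 76125 features of the lncRNA table, and all 10 passed the filter on low counts.

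Total RNA was sequenced in 4 groups of male C57BL/6J mice, bought at 6 weeks of age and about 22 g. The groups were high-fat diet (HFD) with metformin, an antidiabetic biguanide (4 libraries), HFD with resveratrol, a plant polyphenol (3 of 4 libraries used), HFD alone (4 libraries) and normal diet (4 libraries). Mice ate the HFD, with 60% fat, for 8 weeks, and the drug groups then had 6 weeks of treatment; insulin resistance was assessed by a glucose tolerance test. The sources used here state no dose, route or age at collection. Nothing says that libraries of a group came from separate animals, so the p-values reflect how much these libraries vary. The titles and the design text name epididymal fat, while other label text speaks of retina and of skeletal muscle. The fat cell genes Adipoq and Plin1 had 1466 to 3757 and 697 to 1515 CPM, the usual scale on which the counts of every library have the same total. Of 7 retina markers, 6 were in the table, with sums of 2.05 to 8.26 CPM per library, and 12 skeletal muscle markers summed to 28.2 to 137 CPM.

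Each library held 13350585 to 20531032 mRNA counts and 3976504 to 5828645 lncRNA counts. Columns of 2 libraries, called HFD unmatched and metformin unmatched, carried a code found in no title, and only its letters gave their group. Resveratrol 4 was left out because the epididymal gene Crisp1 had 12131 CPM there, against at most 16.32 CPM in the other 15 libraries. Genes of motile cilia, which fat cells lack, summed to 601 to 1608 CPM in metformin 2, 4 and unmatched, 750.3 CPM in resveratrol 2 and 1204 CPM in normal diet 2, and to 53.4 to 123 CPM in the other 10. Values beside the results show where these libraries matter.

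Smooth muscle cells ring arteries and veins and contract through smooth muscle actin and myosin, while pericytes sit singly on capillaries and share some of these genes. Contractile genes are switched on by serum response factor (SRF), which binds a DNA motif called the CArG box, together with its coactivator myocardin. Pericytes are commonly recognised by a regulator of G-protein signalling (Rgs5), a Notch receptor (Notch3), both subunits of a potassium channel gated by ATP (Kcnj8 and Abcc9) and the proteoglycan NG2 (Cspg4). Carmn is a lncRNA of smooth muscle and the host transcript of the microRNAs miR-143 and miR-145, which were not analysed here.

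To show the motif where it lies, the 250 bases before the start of Acta2 and of Cnn1 are given, as the contractile gene whose mean differed least between HFD and normal diet and the one that varied most among libraries. Both run 5′ to 3′ in gene direction, and capitals mark matches to the CArG box of 10 letters with at most 1 mismatch. Acta2 lies on the minus strand at chr19:34255374-34255623 and Cnn1 on the plus strand at chr9:22099003-22099252, both from RefSeq on GRCm38.p6.
Acta2: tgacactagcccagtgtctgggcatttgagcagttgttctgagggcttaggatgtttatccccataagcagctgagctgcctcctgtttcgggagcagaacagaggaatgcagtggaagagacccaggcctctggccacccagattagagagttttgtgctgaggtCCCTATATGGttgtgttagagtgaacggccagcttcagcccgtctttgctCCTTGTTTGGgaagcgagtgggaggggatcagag
Cnn1: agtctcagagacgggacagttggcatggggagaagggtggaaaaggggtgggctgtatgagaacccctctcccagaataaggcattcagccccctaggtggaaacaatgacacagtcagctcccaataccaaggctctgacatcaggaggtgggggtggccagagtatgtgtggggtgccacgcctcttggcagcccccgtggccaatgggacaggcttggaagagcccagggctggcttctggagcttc
In Acta2 the 2 matches begin 84 and 34 bases before the start, and no match was in this window of Cnn1. Among all 32851 promoters searched over the same length and on both strands, 18.6% held such a match and 1.47% an exact one. Of the 7 genes searched, 0 held an exact one, Kcnj8 held 1 and Cspg4 held 2 overlapping matches with a mismatch, and Rgs5, Notch3 and Abcc9 held none. Myh11, Tagln and Carmn were not searched here.

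In counts per kilobase of transcript, divided by the mRNA library size like CPM, the scale on which genes can be compared, Acta2 was the most abundant by its median over the 15 libraries (106), followed by Rgs5 (87.8). Tagln (37.1), Carmn (36.6), Notch3 (27.0), Abcc9 (22.0) and Myh11 (15.2) came next, and Cspg4 (11.6), Kcnj8 (9.11) and Cnn1 (1.86) were the lowest. Each gene's range overlapped that of its neighbour in this order. On the CPM scale the pericyte genes were the steadier set: the highest library exceeded the lowest 1.68-fold for Cspg4, 1.97-fold for Notch3, 1.98-fold for Rgs5, 2.04-fold for Abcc9 and 2.59-fold for Kcnj8. The same ratio was 2.76 for Acta2 and 2.83 for Carmn, and it reached 5.11 for Tagln, 6.95 for Myh11 and 20.2 for Cnn1.

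The first question was which of these genes differed with the diet. On HFD 0 of the 10 genes rose and 3 fell, namely Myh11, Tagln and Carmn. Myh11 and Tagln were 2 of 9 mRNA genes, beside 23.3% of all 17480 mRNA genes tested, and Carmn was 1 of 1 beside 22.3% of all 24046 lncRNA features. These background shares count both directions. The mRNA share is near its background and 1 lncRNA gives no share, so the count is not read as particular to the set. By direction, 2534 mRNA genes rose and 1539 fell, and 577 lncRNA features rose and 4796 fell. The direction of the calls in the set was not tested. The median log2 fold change of the 9 mRNA genes was -0.29, against -0.03 over all mRNA genes. The test was edgeR's quasi-likelihood test over the 15 libraries with Benjamini-Hochberg adjustment over all features and 0.05 as the threshold, and adjusted p-values and standard errors (SE) below come from it. In bulk tissue, fewer cells of a type and less RNA per cell cannot be told apart.

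**Figure D1:**
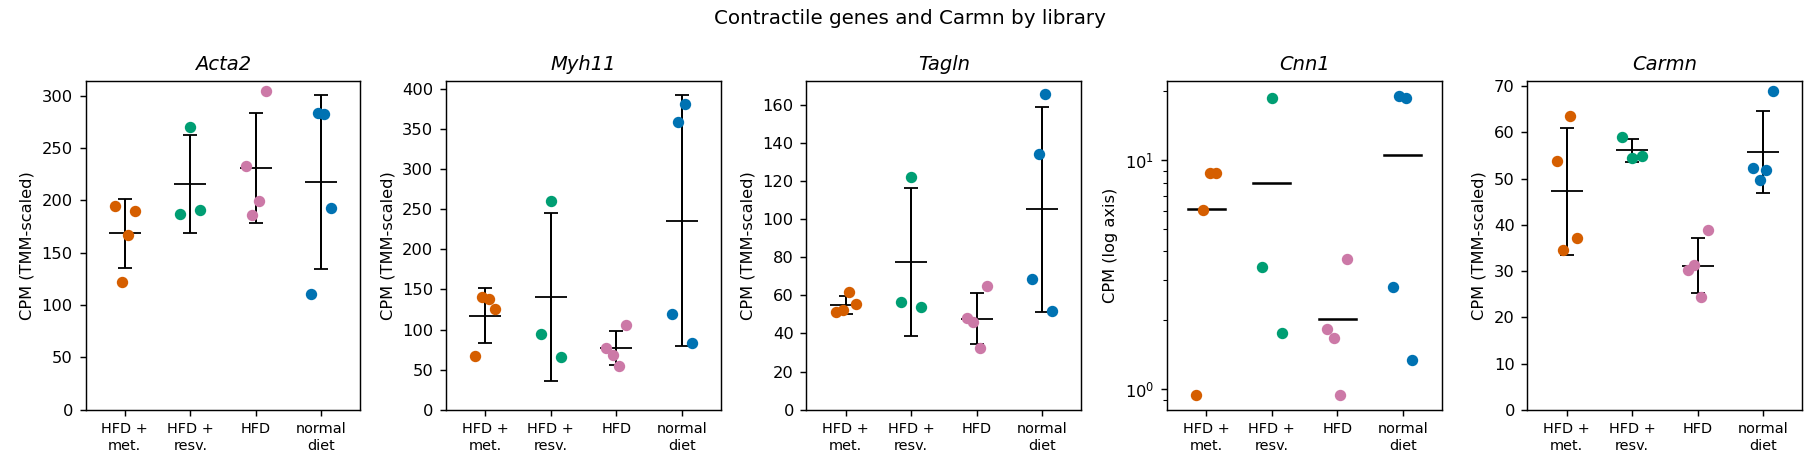
Level of the 4 contractile genes and Carmn, in TMM-scaled CPM, with 1 point per library, the groups along the x axis (met., metformin; resv., resveratrol) and bars for the mean ± SD (mean alone for Cnn1, on a log axis). All 4 HFD points of Carmn (24.4 to 38.8 CPM) lie below the 4 normal diet points (49.8 to 68.9 CPM), while Acta2 overlaps in every group.

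Acta2 (ENSMUSG00000035783, chromosome 19, 34241090 to 34255336 in GRCm38, the build of every gene position given) encodes the smooth muscle actin. It had 195, 122, 167 and 190.2 CPM in metformin 1, 2, 4 and unmatched and 187, 270.0 and 191 CPM in resveratrol 1 to 3. It had 233, 186, 199.5 and 304 CPM in HFD 1, 2, 3 and unmatched, against 110.4, 284, 283 and 192.5 CPM in normal diet 1 to 4. The lowest of all libraries was normal diet 1 and the highest was HFD unmatched, and all groups overlapped. The log2 fold change was 0.09 on HFD (SE 0.27, adjusted p = 0.845), -0.45 with metformin against HFD (SE 0.27, adjusted p = 0.254) and -0.10 with resveratrol against HFD (SE 0.30, adjusted p = 0.883). The 95% interval of the diet difference, -0.45 to 0.62, still allows a change of either sign.

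Myh11 (ENSMUSG00000018830, chromosome 16, 14194527 to 14291408) encodes the smooth muscle myosin heavy chain, the motor of contraction. It had 66.7, 140.0, 138 and 125 CPM in metformin 1, 2, 4 and unmatched and 94.6, 260.2 and 66.1 CPM in resveratrol 1 to 3. In HFD 1, 2, 3 and unmatched it had 77.3, 68.4, 54.9 and 105 CPM, against 119.6, 359, 382 and 83.1 CPM in normal diet 1 to 4. Normal diet 2 and 3 stood far above the other normal diet libraries, and HFD unmatched lay above normal diet 4, so the groups overlapped. Myh11 fell on HFD to 76.5 ± 21.3 CPM, against 236 ± 156 CPM on the normal diet (SD, n = 4 each), lower than every normal diet library in 3 of 4 HFD libraries (log2 fold change -1.62, SE 0.53, adjusted p = 0.0403). The call was lost in 11 of 23 alternatives (adjusted p 0.00524 to 0.112 over them), among them without normal diet 2 (0.109) or 3 (0.11), HFD 1, 2 or 3 (0.0871 to 0.112) or metformin 4 or unmatched (0.0501 and 0.0521). With metformin the log2 fold change against HFD was 0.62 (SE 0.52, adjusted p = 0.421), and with resveratrol it was 0.87 (SE 0.55, adjusted p = 0.367).

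Tagln (ENSMUSG00000032085, chromosome 9, 45929619 to 45936058) encodes transgelin, also called SM22, an actin-binding protein of smooth muscle. It had 51.4, 52.2, 61.8 and 55.4 CPM in metformin 1, 2, 4 and unmatched and 56.4, 122 and 53.8 CPM in resveratrol 1 to 3. In HFD 1, 2, 3 and unmatched it had 48.1, 46.0, 32.4 and 64.6 CPM, against 68.4, 134, 166 and 52.0 CPM in normal diet 1 to 4. As for Myh11, normal diet 2 and 3 and resveratrol 2 were the highest libraries, and HFD unmatched lay above normal diet 4. Tagln fell on HFD to 47.8 ± 13.2 CPM, against 105 ± 53.8 CPM on the normal diet (SD, n = 4 each), with 3 of 4 HFD libraries below every normal diet library (log2 fold change -1.14, SE 0.36, adjusted p = 0.0374). It lost the call in 9 of 23 alternatives (adjusted p 0.00675 to 0.114), among them without normal diet 2 (0.0954) or 3 (0.114) and without HFD 1, 2 or 3 (0.0802 to 0.111). The log2 fold change against HFD was 0.21 with metformin (SE 0.36, adjusted p = 0.718) and 0.70 with resveratrol (SE 0.38, adjusted p = 0.302). Tagln overlaps Pcsk7 on the genome, and since strand handling is not given, reads of the pair may not be separable. Pcsk7 kept to 28.8 to 41.7 CPM over the 15 libraries.

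Cnn1 (ENSMUSG00000001349, chromosome 9, 22099216 to 22109630) encodes calponin, a brake on actomyosin that marks mature smooth muscle. It had 0.947, 6.10, 8.79 and 8.79 CPM in metformin 1, 2, 4 and unmatched and 3.41, 18.8 and 1.76 CPM in resveratrol 1 to 3. In HFD 1, 2, 3 and unmatched it had 1.83, 1.68, 0.947 and 3.697 CPM, against 2.81, 19.1, 18.8 and 1.34 CPM in normal diet 1 to 4. Within the normal diet the highest library exceeded the lowest 14.2-fold, and every group overlapped with HFD. It averaged 2.04 ± 1.17 CPM on HFD and 10.5 ± 9.75 CPM on the normal diet (SD, n = 4 each), and the difference did not pass (log2 fold change -2.37, SE 0.97, adjusted p = 0.0959). Neither did the drug comparisons, with log2 fold changes against HFD of 1.60 for metformin (SE 0.95, adjusted p = 0.25) and 1.97 for resveratrol (SE 1.01, adjusted p = 0.27). Cnn1 had the largest SE of the 10 genes in each comparison and the fewest counts, 1745 over all 15 libraries.

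**Figure D2:**
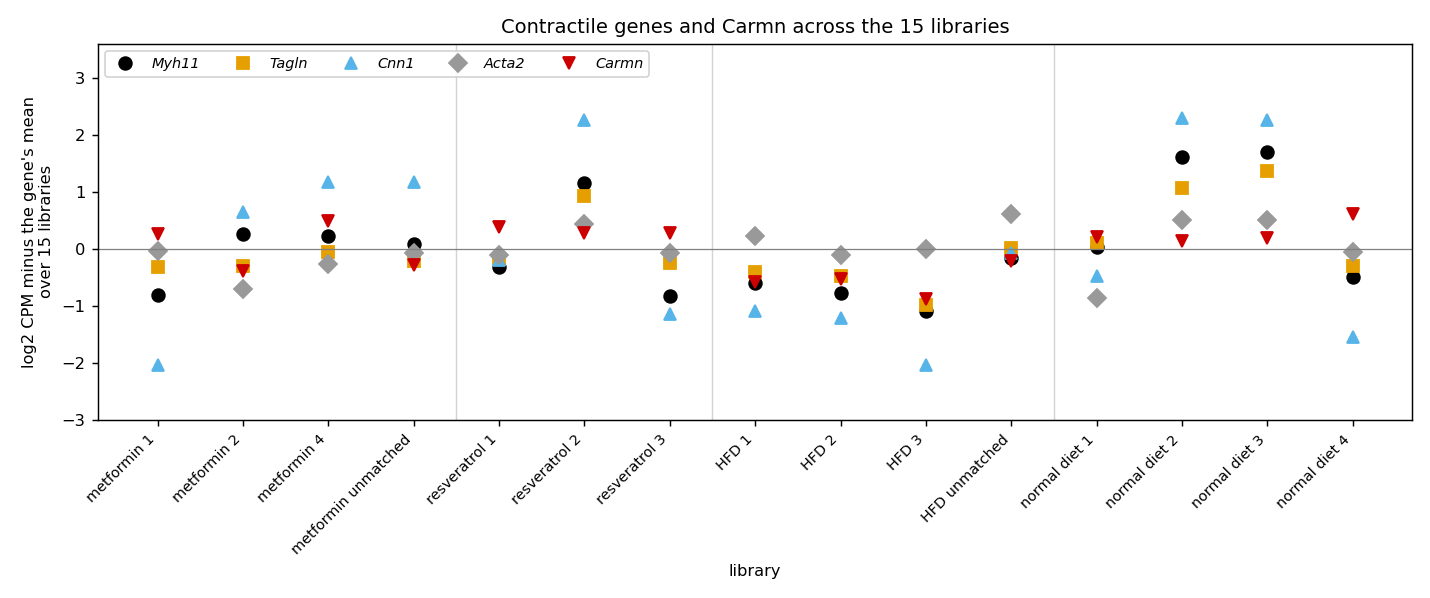
Each point is a library's log2 CPM minus the gene's mean over the 15 libraries, for 4 contractile genes and Carmn, with libraries along the x axis and grey lines between groups. Myh11, Tagln and Cnn1 stand highest in resveratrol 2, normal diet 2 and normal diet 3, where Carmn (49.8 to 54.5 CPM) does not stand out.

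The high libraries of Myh11, Tagln and Cnn1 were the same 3, resveratrol 2, normal diet 2 and normal diet 3. The cilia marker sum was 750.3 CPM in resveratrol 2, 1204 CPM in normal diet 2 and 75.7 CPM in normal diet 3. In the 5 libraries rich in cilia markers Cnn1 had 6.10 to 19.1 CPM, with 6.10 CPM in metformin 2, whose sum of 1608 CPM was the highest. Cnn1 had 18.8 CPM in normal diet 3 and 0.947 to 3.70 CPM in the remaining libraries. Myh11 had 125 to 359 CPM in the 5 libraries, 382 CPM in normal diet 3 and 54.9 to 119.6 CPM in the remaining ones. The part of ciliated tissue in these levels was not tested. All 16 cilia markers were tested, 0 rose and 0 fell with the diet, and their sum was 53.4 to 76.6 CPM on HFD, against 59.6 to 1204 CPM on the normal diet; Foxj1 and Dnah5, defining genes of ciliated cells, were at 0 in some libraries and had medians of 0.343 and 0.292 CPM. Without the 5 cilia-rich libraries the diet log2 fold changes were -1.37 for Myh11 (adjusted p = 0.0684) and -1.02 for Tagln (adjusted p = 0.0816), so both kept their direction and lost the call. With the log2 cilia sum as a covariate they were -1.23 (adjusted p = 0.0491) and -0.96 (adjusted p = 0.0574). Over the 15 libraries, as a description, the log2 CPM of Myh11 followed Cnn1 (Pearson r = 0.94, Spearman rho 0.94) and Tagln (r = 0.94, rho 0.82), and Acta2 less so (r = 0.37, rho 0.14). These values share their libraries and their depth.

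Since Acta2 did not pass the test while Myh11 and Tagln did, the difference between genes was examined as a ratio within each library. The ratios were chosen after that result and use the same libraries, so their p-values are no separate support for it. The log2 ratio of Myh11 to Acta2 was -1.59, -1.45, -1.86 and -1.53 in HFD 1, 2, 3 and unmatched, against 0.12, 0.34, 0.43 and -1.21 in normal diet 1 to 4. All 4 HFD libraries lay below all 4 normal diet libraries, by a mean of -1.53 (exact two-sided permutation test over 70 assignments, p = 0.0286, the smallest p it can give). The log2 ratio of Tagln to Acta2 was likewise lower on HFD without overlap (difference -1.18, exact permutation p = 0.0286), and so was that of Carmn to Acta2 (difference -1.0, exact permutation p = 0.0286). For Carmn the nearest HFD and normal diet libraries were close, at -2.57 and -2.51. Its ratio sets a lncRNA against an mRNA, and on this scale all lncRNAs had a median log2 fold change of -0.46 on HFD. The ratio of Cnn1 to Acta2 averaged -6.97 ± 0.57 on HFD and -5.07 ± 1.55 on the normal diet (SD, n = 4 each) and did not pass (exact permutation p = 0.114). In all 5 ratios were tested, with p-values not adjusted. With 1 library of these groups left out, the exact permutation p ran from 0.0286 to 0.0571 for the ratios of Myh11 and Tagln to Acta2. It ran up to 0.114 for Carmn to Acta2 and up to 0.171 for Cnn1 to Acta2. The groups stayed without overlap in 9 of 9 such settings for Myh11, Tagln and Carmn to Acta2, and in 1 of 9 for Cnn1. With fewer libraries the exact permutation p moves in coarser steps, so its rise does not mean that the groups met.

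**Figure D3:**
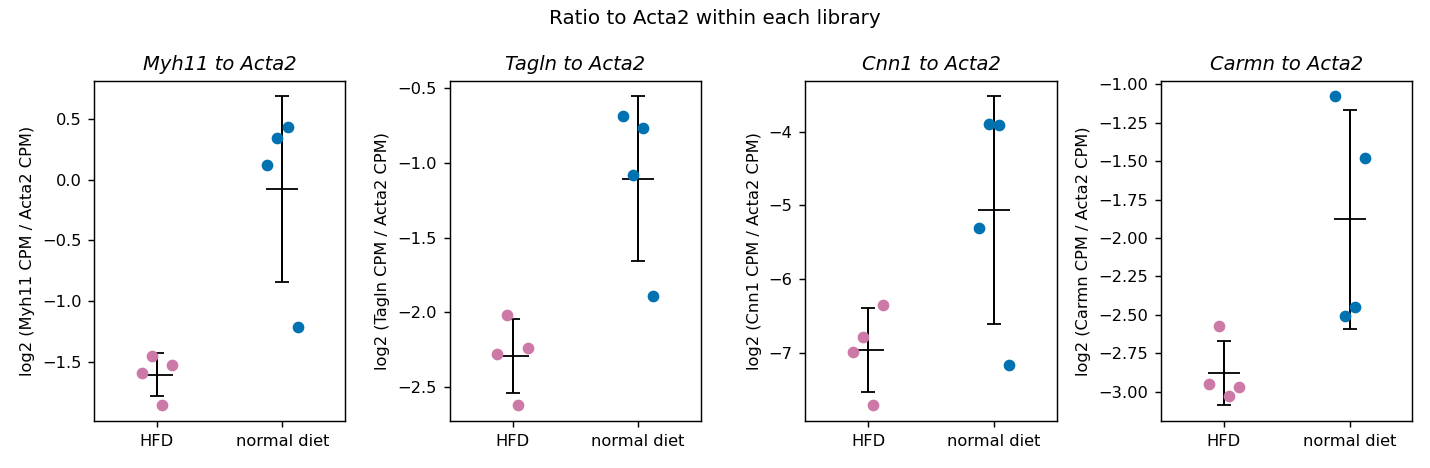
Log2 ratio of Myh11, Tagln, Cnn1 and Carmn to Acta2 within each library (y axes, not from 0), with 1 point per library for HFD and normal diet and bars for the mean ± SD. The groups do not overlap for Myh11, Tagln and Carmn, and normal diet 4 is the lowest of its group for Myh11, Tagln and Cnn1.

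Carmn (chromosome 18, 61649625 to 61665537) was the 1 gene of the 10 whose HFD and normal diet libraries did not overlap. The share of all lncRNA features without such overlap was not counted, so the separation is not read as particular to this gene. Carmn had 53.9, 34.5, 63.5 and 37.2 CPM in metformin 1, 2, 4 and unmatched and 58.9, 54.5 and 54.96 CPM in resveratrol 1 to 3. In HFD 1, 2, 3 and unmatched it had 30.3, 31.3, 24.4 and 38.8 CPM, against 52.3, 49.8, 51.8 and 68.9 CPM in normal diet 1 to 4. All HFD libraries lay below all normal diet and all resveratrol libraries, and the metformin group straddled the gap. Carmn fell on HFD to 31.2 ± 5.93 CPM, against 55.7 ± 8.88 CPM on the normal diet (SD, n = 4 each), lower than every normal diet library in 4 of 4 HFD libraries (1.79-fold, log2 fold change -0.84, SE 0.19, adjusted p = 0.00884). The call held with each library left out in turn (log2 fold change -0.94 to -0.70) and without the 5 cilia-rich libraries (-0.90, adjusted p = 0.00962).

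The size of the Carmn difference depends on how lncRNAs were scaled. Carmn was scaled by the mRNA total, and on that scale lncRNAs as a whole were lower on HFD: 577 rose and 4796 fell, with a median log2 fold change of -0.46. Scaled by the lncRNA total, 1083 rose and 1043 fell with a median of -0.08, and Carmn had a log2 fold change of -0.48 (SE 0.20, adjusted p = 0.163). Relative to the median lncRNA it stood at -0.38 and -0.40 log2 units on the 2 scales. A change of scale shifts all lncRNAs by nearly the same amount, so these values had to be close and are no separate support. A lower log2 fold change than that of Carmn was found for 26.1% of lncRNA features on the mRNA scale and 25.1% on the lncRNA scale. Over all 24 alternatives its adjusted p ran from 0.000262 to 0.163, and it also lost the call when resveratrol 4 was put back (adjusted p = 0.0703).

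Carmn had 12083 counts in 2 transcripts, and the longer gave 64.1 to 71.4% of them on HFD and 64.3 to 69.8% on the normal diet. A further transcript from the NONCODE collection, NONMMUT032603.2, spans the same locus and had 2909 counts, and reads may be divided between them in a way the sources do not state. It had 6.86, 7.76, 4.68 and 9.18 CPM in HFD 1, 2, 3 and unmatched, against 11.8, 12.3, 13.4 and 18.3 CPM in normal diet 1 to 4, again without overlap. It fell on HFD (log2 fold change -0.97, SE 0.19, adjusted p = 0.00355) and kept the call in all 24 alternatives (adjusted p 2.37e-05 to 0.0431). With metformin all 4 of its libraries lay above all HFD libraries, at 11.6 ± 1.43 CPM, against 7.12 ± 1.89 CPM on HFD (SD, n = 4 each), without passing (0.70, SE 0.19, adjusted p = 0.0521). With resveratrol it rose to 13.1 ± 0.707 CPM (SD, n = 3; log2 fold change 0.88, SE 0.20, adjusted p = 0.046), a call lost in 18 of 24 alternatives. The neighbouring lncRNA Bvht, known from mouse heart development, averaged 2.23 ± 0.646 CPM on HFD and 2.17 ± 0.214 CPM on the normal diet (SD, n = 4 each, adjusted p = 0.971).

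Of the 5 pericyte genes 0 passed on HFD with edgeR, and DESeq2 called Kcnj8. Of all 17535 mRNA genes it tested, DESeq2 called 2916 up and 2531 down on HFD. Rgs5 (ENSMUSG00000026678, chromosome 1, 169655501 to 169695813), which damps signals from G-protein-coupled receptors, had 303, 252, 401 and 351 CPM in metformin 1, 2, 4 and unmatched and 412, 499.9 and 309.5 CPM in resveratrol 1 to 3. It had 401, 368, 345 and 356 CPM in HFD 1, 2, 3 and unmatched, against 316, 408, 454 and 361 CPM in normal diet 1 to 4. All 4 groups overlapped. Its log2 fold change was -0.07 on HFD (SE 0.17, adjusted p = 0.803, 95% interval -0.39 to 0.26), -0.17 with metformin against HFD (adjusted p = 0.503) and 0.15 with resveratrol against HFD (adjusted p = 0.669).

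Notch3 (ENSMUSG00000038146, chromosome 17, 32120820 to 32166880) encodes the Notch receptor of mural cells. It had 221, 145, 197 and 166.5 CPM in metformin 1, 2, 4 and unmatched and 259.6, 231 and 206 CPM in resveratrol 1 to 3. In HFD 1, 2, 3 and unmatched it had 260.1, 239, 205 and 280.3 CPM, against 197, 229.7, 287 and 195 CPM in normal diet 1 to 4. Of the metformin libraries 3 lay below all HFD libraries, and metformin 1 did not. The log2 fold change was -0.43 with metformin against HFD (SE 0.16, adjusted p = 0.0742), -0.08 with resveratrol against HFD (adjusted p = 0.815) and 0.12 on HFD (SE 0.16, adjusted p = 0.623), none past the threshold. Without metformin 1 the metformin difference passed (log2 fold change -0.54, adjusted p = 0.0344), and over its 23 alternatives the adjusted p ran from 0.0344 to 0.797. The highest p was that without the 5 cilia-rich libraries, where the log2 fold change was -0.13.

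**Figure D4:**
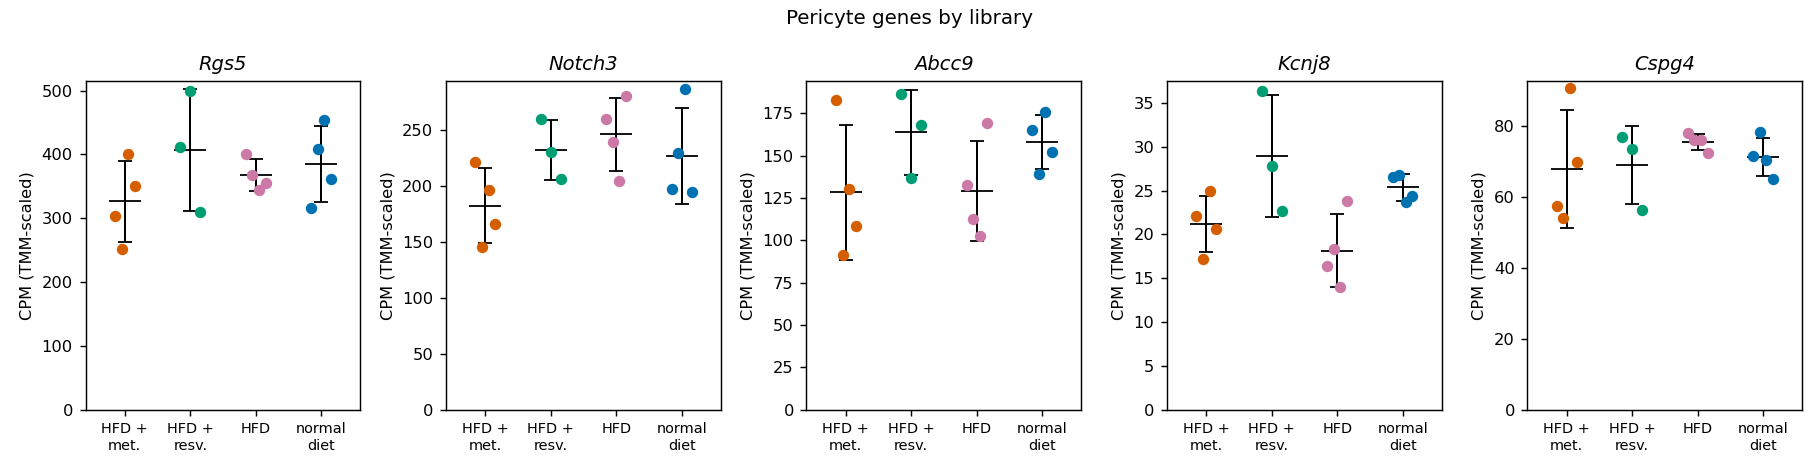
Level of the 5 pericyte genes in TMM-scaled CPM, with 1 point per library, the groups along the x axis (met., metformin; resv., resveratrol) and bars for the mean ± SD. For Kcnj8, HFD unmatched (23.8 CPM) lies apart from the other HFD libraries (14.1 to 18.3 CPM) and within the range of the normal diet.

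Kcnj8 and Abcc9 encode the pore Kir6.1 and the regulatory subunit SUR2 of the ATP-gated potassium channel of vascular muscle, and lie 16247 bases apart on chromosome 6. Kcnj8 (ENSMUSG00000030247, 142564837 to 142571614) had 22.1, 17.2, 24.9 and 20.6 CPM in metformin 1, 2, 4 and unmatched and 36.4, 27.8 and 22.6 CPM in resveratrol 1 to 3. It had 16.4, 18.3, 14.1 and 23.8 CPM in HFD 1, 2, 3 and unmatched, against 26.6, 26.8, 23.7 and 24.4 CPM in normal diet 1 to 4. The normal diet libraries were close together, 3 HFD libraries lay below them all, and HFD unmatched lay among them. Kcnj8 averaged 18.1 ± 4.18 CPM on HFD and 25.4 ± 1.56 CPM on the normal diet (SD, n = 4 each), a difference that missed the threshold (log2 fold change -0.48, SE 0.17, adjusted p = 0.0628) and passed it without HFD unmatched (-0.61, adjusted p = 0.0146), metformin 2 (0.0399), resveratrol 1 (0.0452) or resveratrol 3 (0.0465). Over 23 alternatives its adjusted p ran from 0.0146 to 0.17. With resveratrol it averaged 28.9 ± 6.95 CPM (SD, n = 3), against 18.1 ± 4.18 CPM on HFD (SD, n = 4), and missed it as well (0.67, SE 0.19, adjusted p = 0.0579), passing without HFD unmatched (0.79, adjusted p = 0.0109) or metformin 2 (0.67, adjusted p = 0.038). Metformin against HFD gave 0.22 (SE 0.17, adjusted p = 0.387).

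Of the 2 Kcnj8 transcripts in the table, the shorter took 14.6 to 21.4% of the counts on HFD and 11.7 to 14.4% on the normal diet, a split that was not tested. Abcc9 (ENSMUSG00000030249, 142587862 to 142702315) had 183, 91.5, 130.3 and 109 CPM in metformin 1, 2, 4 and unmatched and 187, 137 and 168 CPM in resveratrol 1 to 3. It had 133, 112, 103 and 169 CPM in HFD 1, 2, 3 and unmatched, against 165, 139, 176 and 152 CPM in normal diet 1 to 4. The pattern was that of Kcnj8, with HFD 1, 2 and 3 below all normal diet libraries and HFD unmatched among them. No comparison of Abcc9 passed, with log2 fold changes of -0.29 on HFD (SE 0.20, adjusted p = 0.313), -0.01 with metformin against HFD (adjusted p = 0.977) and 0.34 with resveratrol against HFD (SE 0.22, adjusted p = 0.376). The log2 ratio of Kcnj8 to Abcc9 averaged -2.83 ± 0.17 on HFD and -2.64 ± 0.21 on the normal diet (SD, n = 4 each, exact permutation p = 0.286). The other subunit genes of ATP-gated potassium channels, Kcnj11 and Abcc8, reached at most 2.11 and 2.79 CPM in any library. Of these 2 genes, 0 rose or fell in any of the comparisons.

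Cspg4 (ENSMUSG00000032911, chromosome 9, 56865033 to 56899870) encodes NG2, a surface proteoglycan of pericytes. It had 57.4, 53.9, 90.7 and 69.7 CPM in metformin 1, 2, 4 and unmatched and 76.8, 73.6 and 56.4 CPM in resveratrol 1 to 3. It had 77.9, 76.0, 75.9 and 72.4 CPM in HFD 1, 2, 3 and unmatched, against 71.5, 78.3, 70.2 and 64.9 CPM in normal diet 1 to 4. Levels on HFD and on the normal diet were close, with a log2 fold change of 0.08 (SE 0.15, adjusted p = 0.703, 95% interval -0.20 to 0.37), and the drug libraries spread more widely. Neither drug comparison passed, with -0.15 for metformin against HFD (adjusted p = 0.486) and -0.13 for resveratrol against HFD (adjusted p = 0.658). The transcript of 8121 bases took 80.2, 58.4, 33.9 and 43.8% of the Cspg4 counts in metformin 1, 2, 4 and unmatched, 65.5 to 80.6% in the HFD libraries and 44.5 to 78.1% in the normal diet libraries. The gene total did not follow that share, since metformin 4 had both the highest total and the lowest share.

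The drugs were compared with HFD to ask whether they moved these genes. With metformin, 0 of 10 genes passed with edgeR, where 14.6% of mRNA genes and 4.22% of lncRNA features did. The unadjusted edgeR p was under 0.05 for 2 (Carmn and Notch3), beside 6179 of 17480 mRNA genes and 6339 of 24046 lncRNA features. DESeq2 called the same 2, beside 4388 of 17535 mRNA genes and 2560 of 23934 lncRNA features. With resveratrol, 0 of 10 passed with edgeR, where 4.51% of mRNA genes and 1.8% of lncRNA features did. The unadjusted edgeR p was under 0.05 for 2 (Carmn and Kcnj8), beside 3881 mRNA genes and 4811 lncRNA features. DESeq2 called these 2, beside 2141 mRNA genes and 1530 lncRNA features. None of these counts is read as particular to the set. The median log2 fold change of the 9 mRNA genes was -0.01 with metformin and 0.34 with resveratrol, against 0.02 over all mRNA genes in both comparisons. Without the 5 cilia-rich libraries, which leaves 1 metformin library, the metformin estimates of Myh11 and Cnn1 turned to -0.18 and -1.07 and that of Abcc9 to 0.52, while Carmn was 0.88 with resveratrol (adjusted p = 0.0848). Both comparisons share the 4 HFD libraries, which are also those of the diet comparison, so their directions are not independent of it.

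**Figure D5:**
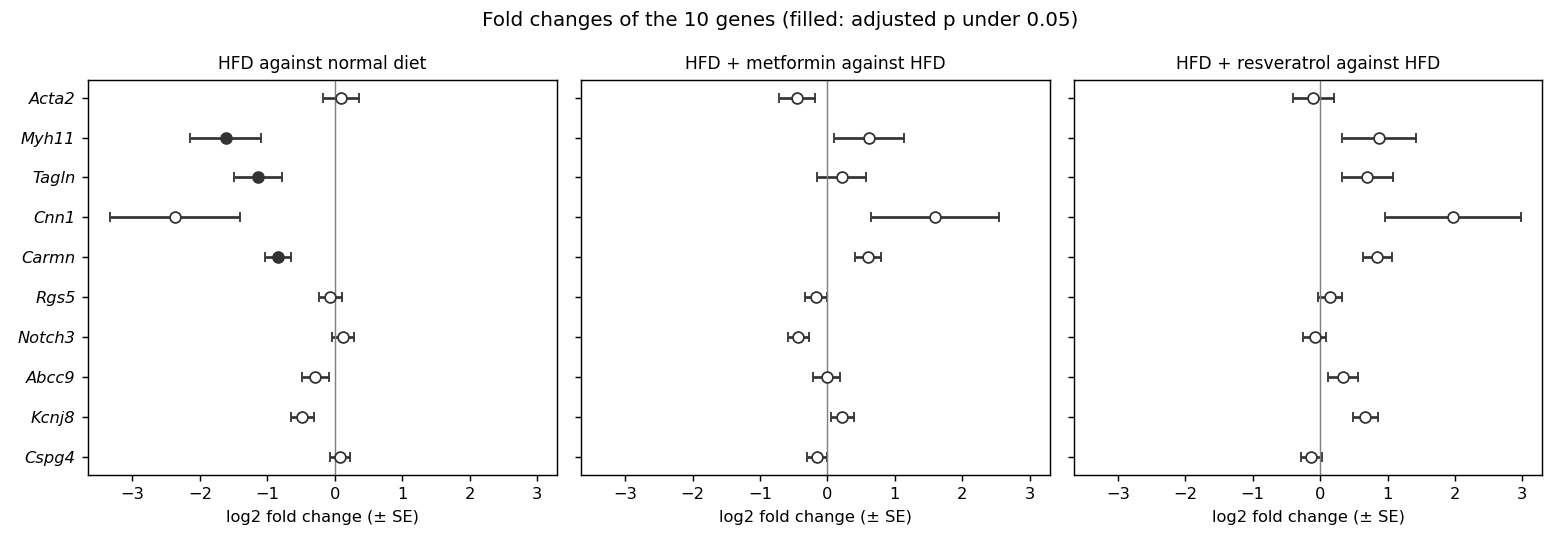
Log2 fold change (x axis) ± SE of each of the 10 genes (rows) in the 3 comparisons, filled where the adjusted p was under 0.05. Filled points are Myh11, Tagln and Carmn on HFD against normal diet, all below 0, and 0 points are filled in the drug comparisons.

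Carmn had the smallest adjusted p of the 10 genes with resveratrol, and with metformin the smallest after Notch3. With resveratrol it averaged 56.1 ± 2.45 CPM (SD, n = 3), against 31.2 ± 5.93 CPM on HFD (SD, n = 4), and all 3 resveratrol libraries lay above all 4 HFD libraries (log2 fold change 0.85, SE 0.21, adjusted p = 0.0528). It passed in 6 of 24 alternatives (adjusted p 0.00252 to 0.259), among them without HFD unmatched (0.0347) or metformin 2 (0.0454), and had 0.57 (adjusted p = 0.259) when scaled by the lncRNA total. With metformin it averaged 47.3 ± 13.8 CPM, against 31.2 ± 5.93 CPM on HFD (SD, n = 4 each), and 2 of 4 metformin libraries lay above all HFD libraries (log2 fold change 0.60, SE 0.19, adjusted p = 0.084). The median log2 fold change of all lncRNA features was 0.29 with metformin and 0.30 with resveratrol on this scale, and 836 rose and 178 fell with metformin and 370 rose and 64 fell with resveratrol. On the lncRNA scale the medians were 0.00 and 0.01, with 107 up and 383 down for metformin and 11 up and 49 down for resveratrol. The 3 resveratrol libraries, at 54.5 to 58.9 CPM, lay within the range of the normal diet, 49.8 to 68.9 CPM, a comparison that was not tested.

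Markers of other cells were read over the same libraries. Their counts stand beside 23.3% of all mRNA genes called on HFD, 14.6% with metformin and 4.51% with resveratrol. Of 6 macrophage markers, 5 rose and 0 fell on HFD, and their sum was 1600, 1760, 1799 and 718 CPM in HFD 1, 2, 3 and unmatched, against 571 to 949.7 CPM on the normal diet. It was 534 to 699.9 CPM with metformin, where 6 of 6 fell against HFD, and 567 to 657 CPM with resveratrol, where 5 of 6 fell, and none of the 6 markers was at 0 in any library. HFD unmatched, the lowest HFD library in this sum, was the highest HFD library in Carmn, Kcnj8, Abcc9, Tagln, Myh11 and Cnn1. It was also the highest in Acta2 and Notch3, whose diet estimates were not negative. In Rgs5 the highest was HFD 1, and in Cspg4 HFD unmatched was the lowest. Of 10 mesothelial markers, 0 rose or fell, and their sum was 96.8, 53.7, 34.97 and 434 CPM in HFD 1, 2, 3 and unmatched, against 266 to 337 CPM on the normal diet. Endothelial markers summed to 2123 to 3809 CPM on HFD, against 3014 to 3463 CPM on the normal diet, and 1 of 15 rose. Fibroblast markers summed to 9935, 10159, 10094 and 5589 CPM in HFD 1, 2, 3 and unmatched, against 4208 to 8212 CPM on the normal diet. Of 11, 2 rose and 1 fell on HFD, with 10 positive estimates, and 0 rose and 2 fell with metformin against HFD, with 11 negative ones.

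Markers of the reproductive tract also differed between the groups. Beside their counts, 23.3% of all mRNA genes were called on HFD and 14.6% with metformin. Of 10 tested epididymis and seminal vesicle markers, 0 rose and 6 fell on HFD, and the list summed to 0.470 to 5.03 CPM on HFD, against 42.8, 313, 1.36 and 1193 CPM in normal diet 1 to 4. Normal diet 3, with 1.36 CPM, was the highest library in Myh11 and Tagln, and normal diet 4, with 1193 CPM, was the highest in Carmn. With metformin 3 of 10 rose against HFD, and Crisp1 had 15.2 ± 0.769 CPM with metformin and was at 0 in all HFD libraries (n = 4 each, adjusted p = 0.00706). Spermatogenic markers summed to 2214 CPM in metformin 2 and to 3.25 to 12.0 CPM in the other metformin libraries, against 0.893 to 9.93 CPM on HFD, and 4 of 10 rose with metformin. The part of all these cells in the results on Carmn, the contractile genes and the pericyte genes was not tested.

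Lists of related genes were read next, and their drug calls need a limit stated first. All 15 genes named with metformin and all 12 named with resveratrol, macrophage markers included, lost the call without the 5 cilia-rich libraries, which leaves 1 metformin and 2 resveratrol libraries. Of the 29 named on HFD, 6 lost it there, 19 lost it when resveratrol 4 was put back, and 8 kept it in every alternative. No direction was reversed among these genes. Over all mRNA genes 23.3% were called on HFD, 14.6% with metformin and 4.51% with resveratrol, and the counts of the lists on HFD are read against that share: none is taken as particular to its list.

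Of 23 further contractile genes, 3 rose and 4 fell on HFD, beside 23.3% of all mRNA genes called, with a median log2 fold change of -0.58, against -0.03 over all mRNA genes, and 18 of 23 estimates were negative. The 3 that rose encode actin anchors also found outside muscle. Synpo2, which encodes myopodin, averaged 675 CPM on HFD and 207 CPM on the normal diet (log2 fold change 1.71, SE 0.29, adjusted p = 0.00184), the actin crosslinker Actn1 rose (0.73, SE 0.14, adjusted p = 0.00346), and so did vinculin, Vcl (0.44, SE 0.13, adjusted p = 0.0262). The 4 that fell were the myosin phosphatase inhibitor Ppp1r14a (-0.82, SE 0.22, adjusted p = 0.0183), the phosphatase subunit Ppp1r12b (-0.47), the tropomyosin Tpm2 (-1.20) and the filament gene Des (-0.66, adjusted p = 0.0431). Ppp1r12b and Tpm2 are named because only 4 fell, which was known after their values were seen. Des lost the call in 14 of 23 alternatives, Ppp1r12b in 9, Vcl and Tpm2 in 7 each and Ppp1r14a in 5, and each of the 5 lost it, among others, without HFD 1 and without HFD 2. Des averaged 32.4 ± 3.04 CPM on HFD and 51.2 ± 18.7 CPM on the normal diet (SD, n = 4 each), and its highest libraries were normal diet 2 and 3 (73.9 and 58.7 CPM), as for Myh11. The visceral smooth muscle actin Actg2 ranged from 0.357 to 38.3 CPM, highest in metformin 2, and its diet difference did not pass (-2.39, SE 1.30, adjusted p = 0.194). With each drug 0 of the 23 rose and 1 fell against HFD, Actn1 in both (-0.65 with metformin, adjusted p = 0.0145, and -0.58 with resveratrol, which lost the call in 16 of 23 alternatives).

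Of 10 tested regulators of the smooth muscle state, 2 rose and 3 fell on HFD, beside 23.3% of all mRNA genes called, and their median log2 fold change was 0.03, against -0.03 over all mRNA genes. The coactivators of SRF that respond to actin, Mkl1 (log2 fold change 0.51, SE 0.11, adjusted p = 0.00676) and Mkl2 (0.64, SE 0.11, adjusted p = 0.00203), rose. Klf4, which represses contractile genes, fell to 82.0 CPM on HFD, against 173 CPM on the normal diet (-1.08, SE 0.16, adjusted p = 0.000908), as did the transcription factors Gata6 (-1.17, SE 0.25, adjusted p = 0.00593) and Nr2f2 (-1.13), the last named after its value was seen. Myocd, which encodes myocardin, averaged 2.05 ± 0.408 CPM on HFD and 3.88 ± 2.52 CPM on the normal diet (SD, n = 4 each, adjusted p = 0.27), with its highest levels in normal diet 2, metformin 2 and resveratrol 2 (7.31, 5.75 and 5.69 CPM). Srf had 39.7 ± 1.61 CPM on HFD and 45.8 ± 4.04 CPM on the normal diet (SD, n = 4 each, adjusted p = 0.0948). Against HFD, Mkl1 fell with metformin (-0.68, adjusted p = 0.0103) and with resveratrol (-0.61, adjusted p = 0.0327), Nr2f2 rose with metformin (0.95, adjusted p = 0.0366) and Gata6 rose with resveratrol (1.02, adjusted p = 0.0494), a call lost in 17 of 23 alternatives.

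Of 16 further pericyte genes, 3 rose and 1 fell on HFD, beside 23.3% of all mRNA genes called, with a median log2 fold change of 0.27, against -0.03 over all mRNA genes. Anpep, an aminopeptidase also made by myeloid cells, had 191 CPM on HFD and 48.7 CPM on the normal diet (log2 fold change 1.97, SE 0.37, adjusted p = 0.00326), and it fell against HFD with metformin (-2.14, adjusted p = 0.0103) and with resveratrol (-1.97, adjusted p = 0.0327). The metalloreductase Steap4 (0.57, adjusted p = 0.0357) and the nucleotide receptor P2ry14 (0.75, adjusted p = 0.0405) rose on HFD, and Art3 fell (-0.78, adjusted p = 0.0295). Steap4 lost the call in 13 of 23 alternatives, P2ry14 in 12 and Art3 in 7. Pdgfrb, the receptor that pericytes need to be recruited, did not pass on HFD (0.24, adjusted p = 0.178). It fell with metformin to 124 ± 19.3 CPM, against 179.9 ± 9.35 CPM on HFD (SD, n = 4 each), below all HFD libraries in 4 of 4 (-0.54, SE 0.13, adjusted p = 0.0186), and lost the call without HFD 1, 2 or 3. In all, 0 of these 16 rose and 3 fell with metformin, and 0 rose and 2 fell with resveratrol.

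Around Notch3, 2 of 14 other genes of the pathway rose and 1 fell on HFD, beside 23.3% of all mRNA genes called, and their median log2 fold change was -0.05. The endothelial ligand Dll4 rose (log2 fold change 0.84, SE 0.17, adjusted p = 0.00412), as did the target Hey1 (0.48, adjusted p = 0.027), and the ligand Dll1 fell (-0.99, adjusted p = 0.023). Jag1, the ligand that endothelium presents to mural Notch3, had 172 ± 10.01 CPM on HFD and 163 ± 25.8 CPM on the normal diet (SD, n = 4 each, adjusted p = 0.671). The Notch targets of mural cells, Heyl (adjusted p = 0.985) and Hey2 (adjusted p = 0.199), did not pass on HFD. Dll4 lost its diet call in 1 of 23 alternatives, Hey1 in 3 and Dll1 in 5. With metformin 1 of 14 fell against HFD, the DNA-binding partner Rbpj (-0.41, adjusted p = 0.0344), and with resveratrol 0 of 14 passed.

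A list of 15 genes was read for signals that recruit or hold mural cells, with receptor genes among them. Of these, 2 rose and 2 fell on HFD, beside 23.3% of all mRNA genes called, with a median log2 fold change of -0.19. Angpt2, which loosens mural cells from endothelium, rose to 15.1 CPM on HFD, against 7.77 CPM on the normal diet (log2 fold change 0.96, SE 0.18, adjusted p = 0.00348). Its counterpart Angpt1, which mural cells make and which steadies vessels, fell to 10.1 CPM, against 28.1 CPM (-1.47, SE 0.43, adjusted p = 0.0252). Tgfb1 rose (0.83, SE 0.19, adjusted p = 0.00798) and Pdgfra, a receptor gene and not a signal, fell (-0.58, SE 0.14, adjusted p = 0.0112). Angpt2 kept its diet call in all 23 alternatives and Angpt1 lost it in 7. Against HFD, Tgfb1 and Angpt2 fell with metformin (-1.0 and -0.62, adjusted p = 0.0109 and 0.0425), and Tgfb1 and its receptor gene Tgfbr1 fell with resveratrol (-0.91 and -0.81, adjusted p = 0.0331 and 0.0399).

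Which genes ran most like each set was read from log2 CPM over the 15 libraries, as a description of values that share library and depth. Among the 5 closest to the mean z-score of the 4 contractile genes were Mmp17 (Pearson r = 0.96, Spearman rho 0.86), Ctgf (0.94, 0.85), Tgfb3 (0.92, 0.81) and the smooth muscle actin nucleator gene Lmod1 (0.92, 0.69). Closest to that of the 5 pericyte genes were Tnfrsf10b (0.87, 0.75), Sfn (0.87, 0.91), Ier2 (0.86, 0.75), the guanylate cyclase subunit gene Gucy1b3 (0.85, 0.86) and Spry2 (0.85, 0.73). Among the 5 closest to Carmn were Dhtkd1 (0.94, 0.92), Igfbp4 (0.93, 0.95), A930033H14Rik (0.92, 0.78) and Acsm5 (0.91, 0.75). Among the 9 mRNA genes of the set, Kcnj8 was nearest to Carmn (0.83, 0.74), with 85 of 17423 other genes above it, and Abcc9 was next (0.67, 0.56). With group means subtracted, r with Carmn was 0.66 for Kcnj8 and 0.68 for Abcc9, and -0.20 for Myh11, -0.01 for Tagln and -0.20 for Cnn1.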

How the data were processed

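The authors deposited raw read counts per transcript for mRNAs and for lncRNAs, 1 column per library, with FPKM values beside them, per the file headers. Tools listed in the submitters' processing notes are fastp and HISAT2, with the build GRCm38. How reads were counted, on which strand and with which filters is not stated in the sources used here, and reads of overlapping or antisense genes may not be separable. The deposited FPKM values were used only to check that count columns belonged to their library, for the 14 libraries with a matching title. The total they imply was within 0.0418% of that library's counts, and at least 0.489% away when the mRNA count of another library was used. HFD unmatched and metformin unmatched were not covered by this check. A further 18 columns of per-sample values were not used. In the mRNA table the header stood 1 cell left of the values and 5 broken records were rejoined.

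Transcript counts were summed per gene (lncRNAs per Ensembl name) and tested with edgeR 4.0.16 in R 4.3.3: filterByExpr, TMM factors, a robust quasi-likelihood fit of group over 15 libraries, and Benjamini-Hochberg adjustment over all features of a comparison. lncRNAs were scaled by the mRNA totals and TMM factors. Group means are of TMM-scaled CPM, and marker sums are of CPM without TMM factors. Libraries of a group differed beyond sampling noise (chi-square divided by its degrees of freedom, 13.6 to 551), so none was treated as a repeat. The scripts were tested on simulated data. Alternatives were other size factors (RLE), no filter, DESeq2 1.42.0, a fit that is not robust, all 16 libraries, each library left out, without the 2 unmatched columns, without the 5 libraries above 500 CPM of cilia markers, and a cilia covariate. The members, lists and comparisons were chosen with earlier results of these data known. Named are all 10 members, up to 4 genes with the smallest adjusted p per list, 12 related genes fixed by name, and the 5 genes most like each set, of which 2 are not reported here; others are marked in the text.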

Additional observations from a re-analysis of the deposited data

Results flagged for a closer look

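Carmn in normal diet 4 stood apart from its group, at 68.91 CPM, against 49.8 to 52.3 CPM in normal diet 1 to 3. Its gap to the next library was 0.867 of the group's range. It was the only 1 of 30 sets of 4 libraries examined to be picked out this way, and chance picks about 1 in 20. Without it the diet difference of Carmn was -0.70 on the log2 scale (adjusted p = 0.0296, edgeR quasi-likelihood).

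Resveratrol 4, which entered no comparison, exceeded every normal diet library in 2 genes when all 16 libraries were scaled together. Cnn1 had 24.37 CPM there, against at most 19.07 CPM on the normal diet, and Notch3 had 317.8 CPM, against at most 291 CPM. Other pericyte genes were low in it: Rgs5 had 48.5 CPM, Abcc9 31.8 CPM and Cspg4 23.6 CPM, each below the lowest of the other 15 libraries (253, 91.6 and 53.95 CPM). Carmn, at 22.3 CPM, was also below the lowest of them, 24.96 CPM. Acta2, at 224 CPM, and Myh11, at 252 CPM, lay within the range of the other libraries, 112 to 299 and 56.3 to 388 CPM. Adipocyte markers in resveratrol 4 summed to 841 CPM and its epididymal and seminal vesicle markers to 19436 CPM. Its endothelial markers summed to 369 CPM, against 2123 to 3809 CPM in the other libraries. Which smooth muscle the contractile genes came from, in this or any other library, was not tested.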

How the results depend on the processing

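Over 693 alternatives for the 30 log2 fold changes of the 10 genes, 625 kept direction and side of the threshold, 22 lost the call, 22 gained one and 24 changed sign; the cause was not tested. On HFD, Acta2 turned to -0.04 without the unmatched columns and ran from -0.12 to 0.26 with 1 library left out, and Rgs5 from -0.13 to 0.04. With metformin, Myh11 turned to -0.18 without the cilia-rich libraries and -0.34 with the cilia covariate, Cnn1 to -1.07 and -0.45, Tagln to -0.20 with the covariate, and Abcc9 to 0.52 and 0.33, 0.01 with RLE, 0.02 with DESeq2 and 0.20 without the unmatched columns, running from -0.23 to 0.13 with 1 library left out. With resveratrol, Acta2 turned to 0.03 without the unmatched columns (-0.29 to 0.03 with 1 left out), Rgs5 to -0.23 with all 16 libraries and -0.02 without the cilia-rich ones (-0.03 to 0.28), and Notch3 to 0.02 with all 16.

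Of the 10 genes, those called on HFD were 1 without the filter, 5 with DESeq2, 0 with all 16 libraries and 1 without the cilia-rich ones (1 to 4 with 1 left out). With metformin DESeq2 called 2 (0 to 1 with 1 left out). With resveratrol 2 were called with RLE, DESeq2 or without the unmatched columns and 1 with the covariate (0 to 2). Called mRNA genes on HFD were 1499 with all 16 libraries (2589 to 4988 with 1 left out). With metformin they were 1541 without the filter, 4388 with DESeq2, 0 with all 16, 17 without the cilia-rich libraries and 9 with the covariate (360 to 3702). With resveratrol they were 351, 2141 and 442 under the first 3 of these, 1873 without the unmatched columns and 16 without the cilia-rich libraries (1 to 2097). Called lncRNA features on HFD were 3242 without the filter, 2691 with all 16 and 2126 on the lncRNA scale (3157 to 5603). With metformin they were 197, 2560 with DESeq2, 13, 112 without the cilia-rich libraries, 20 with the covariate and 490 on the lncRNA scale (11 to 1550). With resveratrol they were 80, 1530, 208, 926 without the unmatched columns, 26 without the cilia-rich libraries and 60 on the lncRNA scale (1 to 1106).

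No paired analysis was possible because the labels do not say what the numbers in the title codes stand for, and replicate numbers were given in accession order. With 3 or 4 libraries a group, Cnn1, at 1745 counts in all, was the least precise.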
